A study of Mus musculus with 6 samples.

Results

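Proteasome genes were followed as 1 module in 6 single mouse blastocysts. They were taken as the protein-coding genes of GENCODE M21 whose symbol starts with Psma to Psmg and a number, which gave 46 of the 12149 genes of the table. One of these, Psmc3ip, is named for binding an ATPase subunit and encodes a recombination factor, so it is given apart, and 45 proteasome genes remain. Psmb8, Psmb9, Psmb11 and Psme2b, the other 4 protein-coding genes with such a symbol, are not analysed here. The embryos came from C57BL/6 zygotes injected with 2 ng/µl of sperm small RNAs and were lysed singly at embryonic day 3.5, about 96 h later. In the control group (Ctl, 3 embryos) the small RNAs came from sperm of normal males, and in the other group (Dep, 3 embryos) from sperm of males made depressive by stress. Both groups thus share the injection, the dose and the culture, and no uninjected embryo was analysed. The labels do not say how many males gave RNA or whether embryos had parents or a day of injection in common, so p-values measure only the spread between these embryos.

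The proteasome degrades proteins tagged with ubiquitin. Its barrel-shaped core particle has outer rings of alpha subunits, which gate the entry, and inner rings of beta subunits, some of which carry the cutting sites. A regulatory particle caps the core: a ring of ATPases unfolds the substrate, while the non-ATPase subunits of its base and lid bind ubiquitin and remove it. Activators of another kind can cap the core in place of the regulatory particle, and dedicated chaperones build the rings. In the early embryo this machinery removes maternal proteins as the embryo's own genome takes over.

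Depth, as reads in listed genes, ran from 16543356 to 21548220 per embryo. In Dep 1, 691 listed genes had no read, where the other embryos had 5 to 106 such genes, and the median of each subunit group is given with and without it. Trophectoderm markers were read in every embryo (8 of 8 genes, summed level 3273 to 4731 in CPM, counts scaled to equal totals, in Ctl and 2726 to 6763 in Dep). Of 6 epiblast markers 5 were read in every embryo, at a summed 343 to 504 and 272 to 602 CPM, and Fgf4 was at 0 in Dep 1. Of 5 measured primitive endoderm markers only Gata6 and Pdgfra were read in all embryos: Gata4 was at 0 in Ctl 3 and Dep 1, and Sox17 and Sox7 in Dep 1, with sums of 321 to 399.8 in Ctl against 150.3 to 568 in Dep. Of the lists for cumulus, oocyte, blood and sperm, 1 gene each was measured: Amhr2 at 1.63 to 11.0 CPM, Zp3 at 0 to 6.41, Cd74 at 1.22 to 47.1 and Prm1 at 0.232 to 2.32. The part of cell composition in the values below was not tested, and in whole embryos fewer cells of a type and less RNA per cell cannot be told apart.

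To show the DNA in front of genes whose RNA levels went together and of an activator gene that was highest in Dep 1, the 250 bases before the start site are printed for Psma5, Psmb3, Psmc5 and Psmd4 (a subunit each of the alpha ring, beta ring, ATPase ring and base), then for Psme2. The sequences are RefSeq's, build GRCm38.p6, written 5′ to 3′ on the strand of the gene, and the start sites are RefSeq's too. GENCODE M21, used for the gene positions given below, places the outermost start of Psmb3, Psmc5 and Psme2 within the printed window. Capitals mark each match to 1 of the 5 motifs described next. Psma5 is read from chr3:108256676-108256925 (+), Psmb3 from chr11:97703184-97703433 (+), Psmc5 from chr11:106255935-106256184 (+), Psmd4 from chr3:95042615-95042864 (-) and Psme2 from chr14:55591102-55591351 (-).
Psma5: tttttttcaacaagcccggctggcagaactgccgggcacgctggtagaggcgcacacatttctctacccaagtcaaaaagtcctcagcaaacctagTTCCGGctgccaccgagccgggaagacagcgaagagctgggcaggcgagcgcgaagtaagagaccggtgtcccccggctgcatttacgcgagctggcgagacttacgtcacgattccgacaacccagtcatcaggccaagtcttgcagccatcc
Psmb3: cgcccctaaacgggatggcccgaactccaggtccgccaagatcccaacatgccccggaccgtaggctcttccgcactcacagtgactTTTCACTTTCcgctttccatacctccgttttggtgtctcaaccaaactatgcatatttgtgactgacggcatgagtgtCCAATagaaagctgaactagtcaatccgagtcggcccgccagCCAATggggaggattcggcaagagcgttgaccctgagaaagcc
Psmc5: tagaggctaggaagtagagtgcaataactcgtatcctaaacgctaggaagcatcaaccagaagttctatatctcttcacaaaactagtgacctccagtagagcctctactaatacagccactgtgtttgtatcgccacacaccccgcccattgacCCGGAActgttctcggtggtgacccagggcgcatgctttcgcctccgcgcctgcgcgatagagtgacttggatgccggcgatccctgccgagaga
Psmd4: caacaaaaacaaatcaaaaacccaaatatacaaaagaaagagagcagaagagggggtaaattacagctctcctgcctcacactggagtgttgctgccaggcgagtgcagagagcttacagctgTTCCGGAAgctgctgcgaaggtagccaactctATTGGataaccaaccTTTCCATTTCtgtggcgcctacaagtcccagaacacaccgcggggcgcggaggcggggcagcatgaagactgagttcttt
Psme2: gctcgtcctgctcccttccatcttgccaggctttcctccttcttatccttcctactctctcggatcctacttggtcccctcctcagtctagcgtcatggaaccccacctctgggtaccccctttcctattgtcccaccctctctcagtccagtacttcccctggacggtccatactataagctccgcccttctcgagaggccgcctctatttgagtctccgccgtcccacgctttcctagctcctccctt

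RefSeq promoter entries matched 37 of the 45 genes (40 entries, as some genes have several starts), and Psma8, Psmb1, Psmb2, Psmb7, Psmc3, Psmd3, Psmd7 and Psmg2 had none. These 5 motifs were searched on both strands of the 250 bases before the start: CCAAT, the box bound by NF-Y; CCGGAA, the core bound by ETS factors; TGACNNNGC, the core of the antioxidant response element that the proteasome regulator Nfe2l1 is known to bind; the interferon-stimulated response element, by its core; and TTCNNNGAA, the site of STAT dimers. CCGGAA stood in 18 of the 40 entries (45%), against 22.7% of the promoters of listed genes and 12.0% of all 32851 promoters. By gene it was found in 4 of 5 ATPase and 7 of 12 non-ATPase genes with an entry, in 2 of 7 alpha genes and in 0 of 5 beta genes. CCAAT stood in 12 entries (30%, against 35.5% of listed and 33.8% of all promoters), including 5 of 7 alpha genes. The antioxidant core was found in 5 (12.5%, against 11.8% and 10.2%), those of Psmb5, Psmb6, Psmc6, Psmd12 and Psmd9. The interferon element was found in 3 (7.5%, against 2.22% and 2.98%), those of Psmb3, Psmd4 and Psmd9, and the STAT site in 1, Psmg1 (2.5%, against 5.56% and 7.02%). In the printed windows Psma5 and Psmc5 hold 1 ETS core each, Psmb3 holds 2 CCAAT boxes and 1 interferon element, and Psmd4 holds 1 CCAAT box, 1 interferon element and 2 ETS cores that overlap on opposite strands. The window of Psme2 holds none of the 5 motifs. The window searched for Psme1 is not printed, since all of it lies inside the gene as GENCODE places it. A match is a string of letters and no measured binding.

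Proteasome subunits were among the well-expressed genes of these embryos. Levels between genes are compared as FPKM, here a gene's reads scaled to the length of its principal transcript in kilobases and to the embryo's total in listed genes. The 14 constitutive core genes (Psma1 to Psma7 and Psmb1 to Psmb7) had a median of 379.7 FPKM, with a range of 181 to 943, and the 17 subunits of the regulatory particle one of 197, with a range of 98.6 to 333, against 9.36 over the 11152 genes with such a transcript. Psmb6, which carries the caspase-like site, was highest, with a mean and SD of 791 ± 137 over the 3 Ctl embryos and 1095 ± 556 over the 3 Dep embryos. Psma7 and Psmb3 followed, at 757 and 684 over all embryos, and Psmb6, Psma7 and Psmb3 overlapped in the range of their embryos. The order within the core depends on the transcript length used: with all annotated exons merged, Psma6 came first (428 FPKM) and Psmb6 next (402). Psmd1 was the lowest regulatory subunit, at 98.6.

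The specialised core subunits were near the bottom of the same scale. Psma8, the alpha subunit typical of testis, had 3.07 FPKM, and Psmb10, the interferon-inducible counterpart of the trypsin-like Psmb7, had 5.64, against 229 for Psmb7. Per length Psmb10 reached 2.16%, 1.24% and 7.18% of Psmb7 in Ctl 1, 2 and 3 against 2.57%, 1.47% and 2.77% in Dep 1, 2 and 3. The groups overlapped in this ratio. Chaperones and activators lay between: the assembly genes Psmg1 to Psmg4 had 33.6 to 104.8 FPKM, the activators Psme1 to Psme4 24.6 to 59.1, the ATPase-ring chaperones Psmd5, Psmd9 and Psmd10 33.9 to 38.6 and Psmf1, an inhibitor of the core in vitro, 18.4. The plot of level per length shows this order with every embryo.

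**Figure D1:**
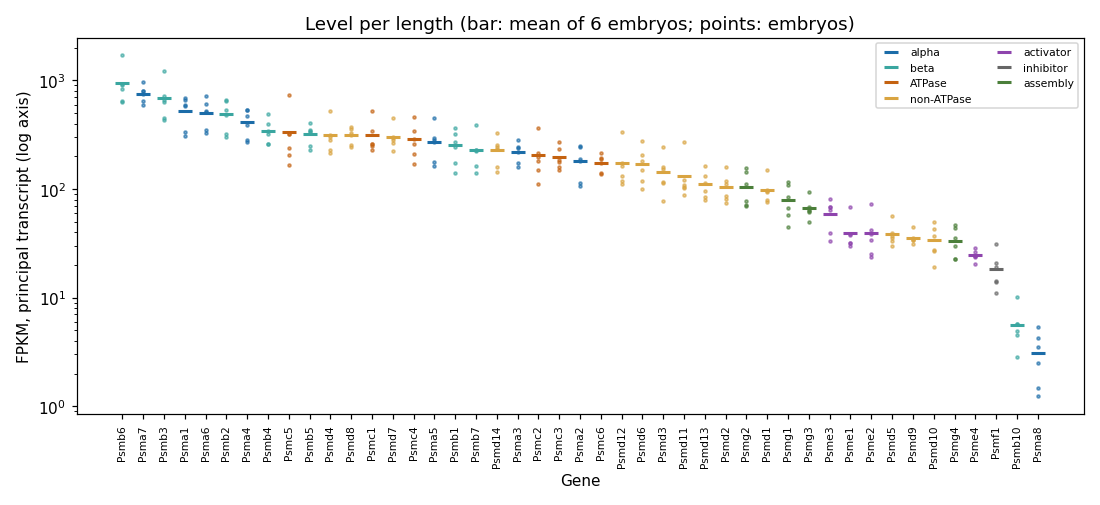
FPKM on a log axis for the 45 proteasome genes, ordered by their mean; short lines are means over 6 embryos, points are single embryos and colours are subunit groups. The first 8 genes of the order are core subunits, from Psmb6 at 943, and Psmb10 (5.64) and Psma8 (3.07) lie at the end.

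Setting Dep against Ctl addresses whether sperm small RNAs of stressed fathers alter the RNA of the embryo, here of its proteasome. Mean log2 levels were higher in Dep for 40 of the 45 genes, where 48.2% of all 12149 genes were higher, and the median log2 fold was 0.19, against -0.02 over all genes and 0.02 over the 3849 genes with a mean of 1000 or more. No member passed the test (limma on log2(normalized count + 1), Benjamini-Hochberg adjusted over all genes, threshold 0.05): 0 of 45 members, where 0% of all genes passed. At an unadjusted p under 0.05 limma had 0 members, where 1.85% of all genes passed, and edgeR on the recovered reads had 0, where 1.74% passed. With the replicate number as a block limma had 1 member, Psmc5, where 3.46% of all genes passed and 0% after adjustment. Without Dep 3 limma had 7 members, all higher in Dep (Psmb1, Psmb3, Psmb6, Psmc5, Psmf1, Psmg1 and Psmg2), where 4.74% of all genes passed. The limma adjusted p was 0.838 for each of these 7. Leaving out Ctl 1, Ctl 2, Ctl 3, Dep 1 or Dep 2 instead gave 0 members at the unadjusted threshold. Dep 3 was the lowest Dep embryo in 88.9% of the members. The groups overlapped in all 45 members, while 6.9% of all genes had groups apart. The 40 of 45 is not a count of independent genes, since the members varied together between embryos within each group. It was 41 without Ctl 1 or Ctl 2, 24 without Ctl 3, 30 without Dep 1, 16 without Dep 2 and 43 without Dep 3, and the median was 0.31, 0.24, 0.02, 0.12, -0.04 and 0.47 in the same order.

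**Figure D2:**
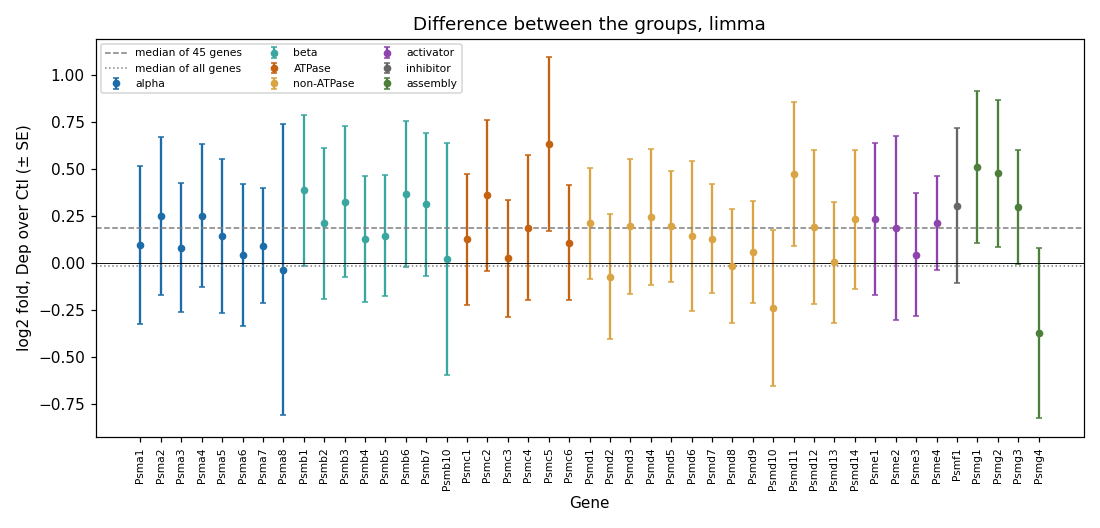
Log2 fold of Dep over Ctl with its standard error (limma, 3 embryos per group) for the 45 proteasome genes, coloured by subunit group; the dashed line is their median (0.19) and the dotted line that of all genes (-0.02). Most points lie above 0, Psmc5 is highest (0.63), and no gene passed the test.

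The alpha ring had the lowest median of the 6 groups of several genes with all embryos in the limma fit, though not with library weights, where the activators were lower (0.05 against 0.14), nor with a covariate for Y-linked genes (0.19 against 0.23). A higher mean log2 level in Dep was found in 7 of its 8 genes, the median log2 fold being 0.09, with a range of -0.03 to 0.25. Psma4, a constitutive ring subunit with the highest fold of the group, had 10642, 8129 and 5519 normalized counts in Ctl 1, 2 and 3 against 13079, 11365 and 5439 in Dep 1, 2 and 3. Ctl 3 and Dep 3 were the lowest of their groups, at nearly the same value, and the groups overlapped. Its log2 fold was 0.25 ± 0.38 (SE; limma adjusted p = 0.9997), which was 0.0023 without Ctl 3, 0.0085 without Dep 1 and 0.64 without Dep 3. Psma7, also a constitutive ring subunit, had 14164, 12239.9 and 10376 in Ctl against 15192, 16009 and 8964 in Dep, a log2 fold of 0.09 ± 0.31. Psma8 went against the others: it had 48.5, 76.8 and 161 in Ctl against 152, 37.7 and 96.9 in Dep, so Ctl 3 was its highest embryo and Dep 2 its lowest. The remaining ring subunits, Psma1, Psma2, Psma3, Psma5 and Psma6, had log2 folds of 0.10, 0.25, 0.08, 0.15 and 0.04 in that order, with standard errors of 0.34 to 0.42. Psma2 and Psma4 overlap the protein-coding genes AW209491 and AY074887, and reads of such pairs cannot be told apart without strand. The median of the group was -0.05 without Ctl 3, -0.07 without Dep 1 and -0.01 without Dep 2.

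The beta ring, which cuts the substrate, had a higher mean log2 level in Dep in 8 of 8 genes (median log2 fold 0.26). The mean of the normalized counts was lower in Dep for Psmb10 (130 against 142 in Ctl). Psmb5 carries the chymotrypsin-like site, the target of proteasome inhibitors used in the clinic. It had 5959, 5543 and 3570.0 normalized counts in Ctl 1, 2 and 3 against 6568, 6583 and 3687 in Dep 1, 2 and 3, a log2 fold of 0.14 ± 0.32. Psmb6 had 14119.5, 11942 and 8935 in Ctl against 15311, 24865 and 8486 in Dep, a log2 fold of 0.37 ± 0.39. Dep 2 alone lay far above the Ctl embryos there, and without it the log2 fold was -0.0082. The trypsin-like Psmb7 had 5224, 4781 and 2851 in Ctl against 5393, 8169.8 and 3099 in Dep, a log2 fold of 0.31 ± 0.38. All 3 catalytic genes thus had the same lowest embryo in each group, the one numbered 3. Psmb1, a subunit without a cutting site and the highest fold of the ring, had 9262, 7697 and 4342 in Ctl against 11815, 11686 and 5019.7 in Dep, a log2 fold of 0.39 ± 0.40 that was 0.068 without Ctl 3 and 0.18 without Dep 1. Psmb10 had 128, 66.8 and 231 in Ctl against 157, 136 and 96.9 in Dep, with Ctl 3 the highest, and its log2 fold of 0.02 ± 0.62 was -0.12 by edgeR. Psmb3, with 9949, 8667 and 6106 in Ctl against 11415, 16818 and 5416 in Dep, was like Psmb6 in having Dep 2 far above the rest, and its log2 fold was 0.33 ± 0.40. Psmb2 and Psmb4, the remaining subunits of the ring, had log2 folds of 0.21 and 0.13. The reads of Psmb7 can include those of Nek6, which overlaps it. Leaving out Dep 2 brought the ring to a median of -0.01, leaving out Ctl 3 to 0.06 and leaving out Dep 1 to 0.12.

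The ATPase ring held the member with the largest difference. Of its genes 6 of 6 had a higher mean log2 level in Dep (median log2 fold 0.16), with a range of 0.03 to 0.63. Psmc5 (ENSMUSG00000020708), on chromosome 11 of GRCm38 from 106256154 to 106263120, had 6200.5, 7655 and 3863 normalized counts in Ctl 1, 2 and 3 against 8842, 17621 and 4398 in Dep 1, 2 and 3. Dep 1 and Dep 2 lay above the 3 Ctl embryos and Dep 3 among them. The group means were 5906 ± 1913 and 10287 ± 6729 (SD, n = 3 each). The log2 fold was 0.63 ± 0.46 (limma adjusted p = 0.9997). It was 0.13 without Dep 2 and 1.14 without Dep 3. The authors' deposited table gives Psmc5 a log2 fold of 0.80 and an adjusted p of 0.9999. Psmc3, another ATPase of the ring and its smallest fold, had 5992, 6913 and 4553 in Ctl against 6121, 8036 and 4042 in Dep. Its log2 fold of 0.03 ± 0.31 took the other sign (-0.016) under quantile normalization, and its reads can include those of Slc39a13, which overlaps it. Psmc2 had 6957, 6901 and 3497 in Ctl against 6818, 11869.9 and 4392 in Dep, a log2 fold of 0.36 ± 0.40, with Dep 2 again alone above the Ctl embryos. The other ATPases had log2 folds of 0.13 (Psmc1), 0.19 (Psmc4) and 0.11 (Psmc6). For the ring as a whole, the median became -0.02 with Ctl 3 left out, 0.19 with Dep 1 left out and -0.07 with Dep 2 left out.

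The non-ATPase group had 11 of 14 genes with a higher mean log2 level in Dep and a median log2 fold of 0.17, from -0.24 to 0.47. Psmd4, a ubiquitin receptor, had 7919, 7557 and 4983 normalized counts in Ctl 1, 2 and 3 against 7826, 12748 and 4977 in Dep 1, 2 and 3. Dep 1 lay between the Ctl embryos, Dep 2 above them, and Dep 3 matched Ctl 3, which left a log2 fold of 0.25 ± 0.36. Psmd14, the deubiquitinase of the lid, had 7317, 6505 and 3917 in Ctl against 8140.3, 9240.3 and 4035 in Dep, a log2 fold of 0.23 ± 0.37. Psmd2, a scaffold of the base that binds ubiquitin-like domains, had 6417, 6341 and 4476 in Ctl against 4646, 8571 and 3939 in Dep, a log2 fold of -0.07 ± 0.33. Psmd11, a lid subunit and the highest fold of the group, had 5800.5, 6232 and 4423 in Ctl against 6433, 14024 and 4748 in Dep. Its log2 fold of 0.47 ± 0.38 was 0.03 without Dep 2. Psmd10, known as gankyrin and a chaperone of the ATPase ring, was lowest, with 1200.1, 959 and 676 in Ctl against 824, 1287 and 447 in Dep and a log2 fold of -0.24 ± 0.42. It was the single member on the X chromosome, and the labels give no sex for the embryos. Psmd3, a lid subunit, departed from the common order: it had 4908, 5885 and 4278 in Ctl against 3493, 9548 and 5561 in Dep, so Dep 1 and not an embryo numbered 3 was lowest. Psmd7, the partner of Psmd14 in the lid, had 8727, 8572 and 7309 in Ctl against 7352, 12839 and 7587 in Dep, with 5 embryos close together and Dep 2 above them. The log2 folds were 0.20 ± 0.36 and 0.13 ± 0.29. The remaining 7 genes (Psmd1, Psmd5, Psmd6, Psmd8, Psmd9, Psmd12 and Psmd13) had log2 folds of -0.02 (Psmd8) to 0.21 (Psmd1), and Psmd1, Psmd5, Psmd9 and Psmd13 overlap another protein-coding gene. The median of the 14 genes was -0.13 without Dep 2, 0.01 without Ctl 3 and 0.19 without Dep 1.

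**Figure D3:**
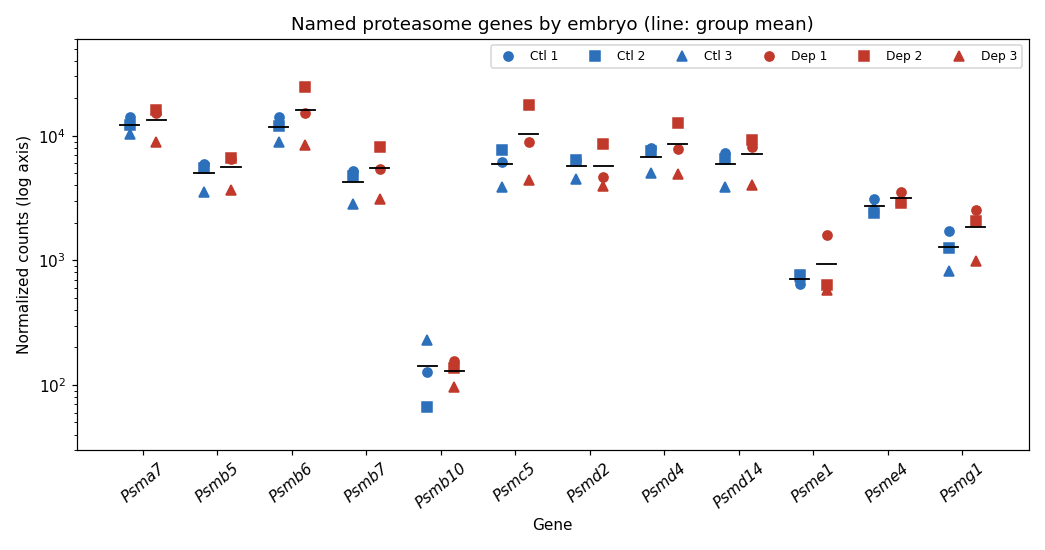
Normalized counts on a log axis of 12 proteasome genes in each embryo, with a line at each group mean; blue is Ctl, red is Dep, and circles, squares and triangles are embryos 1, 2 and 3. The triangles are lowest in both groups for Psma7, Psmb5, Psmb6, Psmb7, Psmc5, Psmd2, Psmd4, Psmd14 and Psmg1, and Dep 1 alone is high for Psme1 (1590.4).

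The activators differed among themselves in the order of the embryos. Psme1 and Psme2 encode the partners of a cap known to be induced by interferon gamma, and lie on chromosome 14 of GRCm38, Psme1 from 55578123 to 55581529 and Psme2 from 55587441 to 55591113. Psme1 overlaps Emc9, whose reads cannot be told from its own without strand. Psme1 had 644, 766 and 733 normalized counts in Ctl 1, 2 and 3 against 1590.4, 639.5 and 579.7 in Dep 1, 2 and 3. Psme2 had 724, 731 and 422 in Ctl against 1479, 594 and 376 in Dep. Dep 1 alone was high for this pair, and the other Dep embryos lay below the mean of Ctl. The log2 folds were 0.24 ± 0.40 and 0.19 ± 0.49, and that of Psme1 was -0.23 without Dep 1. Psme3, which encodes a nuclear activator, had 2049, 3061 and 3177 in Ctl against 1868, 3937 and 2978 in Dep, with Dep 1 now the lowest. Psme4, an activator linked to histone turnover, varied least of the 45 members, with 3082, 2392 and 2704 in Ctl against 3571, 2868 and 3030.2 in Dep. Its coefficient of variation over the 6 embryos was 13.5%, against a median of 36.3% over the members and 35.8% over all genes. Over genes with a mean of 1000 or more, as Psme4 has, that median was 25.1%. The median log2 fold of the 4 activators was 0.20, and -0.05 without Dep 1.

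The Psmg chaperones, which build the core, had the highest median of the groups with all embryos, 0.39 over 4 genes. This rank did not hold without Ctl 1, where the beta ring was higher (0.44 against 0.42). Nor did it hold without Dep 2, where the activators were higher (0.29 against 0.23). Psmg1, whose product pairs with that of Psmg2 to assemble the alpha ring, had 1721, 1267 and 819 normalized counts in Ctl 1, 2 and 3 against 2523, 2072 and 991 in Dep 1, 2 and 3. Dep 1 and Dep 2 lay above all Ctl embryos, as they did for Psmg2 (3441 and 2769.6 against at most 2117). The log2 folds of the pair were 0.51 ± 0.40 and 0.48 ± 0.39, and that of Psmg1 was 0.23 without Ctl 3 and 0.24 without Dep 1. Psmg3 and Psmg4, whose products form the other pair, parted: Psmg3 had a log2 fold of 0.30 ± 0.30, and Psmg4, with 383, 299 and 456 in Ctl against 509, 228 and 206 in Dep, one of -0.37 ± 0.45. The median of the 4 genes stayed above 0 with each embryo left out, from 0.21 without Dep 1 to 0.69 without Dep 3. Psmf1 had 1066, 1303 and 934 in Ctl against 1649, 2171 and 684 in Dep, a log2 fold of 0.31 ± 0.41 that was -0.038 without Dep 2 and 0.16 without Dep 1. Psmc3ip, no proteasome gene, had a log2 fold of 0.18 ± 0.49.

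**Figure D4:**
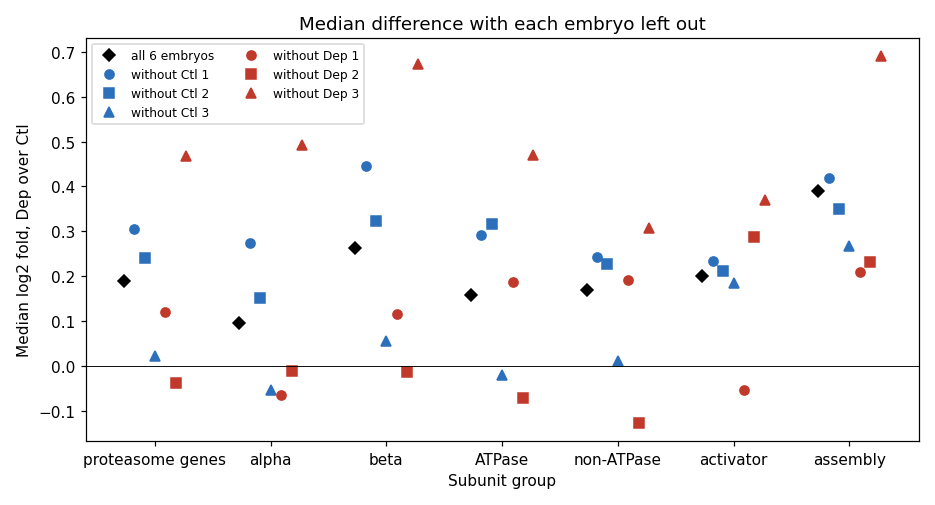
Median log2 fold of Dep over Ctl for the 45 proteasome genes and for each subunit group, with all 6 embryos (diamonds) and with each embryo left out (blue, a Ctl embryo; red, a Dep embryo). Without Dep 2 the medians of the alpha, beta, ATPase and non-ATPase groups are below 0, and without Dep 3 they are 0.31 to 0.67.

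Embryos of 1 group differed more in these genes than the groups did. Reads of the 45 genes took 1.44%, 1.44% and 1.02% of all reads in listed genes in Ctl 1, 2 and 3 against 1.45%, 2.14% and 1.05% in Dep 1, 2 and 3, or 1.30% ± 0.243 and 1.55% ± 0.550 (SD, n = 3 each). Relative to the mean of the 6 embryos, the median log2 deviation of the members was 0.16, 0.05 and -0.43 in Ctl 1, 2 and 3 against 0.25, 0.53 and -0.55 in Dep 1, 2 and 3. The same medians over all genes lay between -0.02 and 0.06, and over genes with a mean of 1000 or more between -0.13 and 0.16. Ctl 3 and Dep 3 were the lowest 2 of the 6 embryos in 36 of the 45 members (80.0%), as in 11.0% of all genes and 21.5% of genes with a mean of 1000 or more. This held for 14 of 14 constitutive core genes and 15 of 17 regulatory genes, the exceptions being Psmd3 and Psmd7. Psma8, Psmb10, Psme1, Psme3, Psme4, Psmg3 and Psmg4 were the other exceptions. These counts describe a pattern seen in the data, with no test.

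The log2 level of most core or regulatory genes rose and fell with that of the others over the embryos. Against the mean of the other such genes over the 6 embryos, which share their libraries, the 31 genes had a median Pearson r of 0.94, and r was above 0.8 in 28 of them, as in 5.63% of all genes. Psmb7 (0.99), Psma5 (0.99) and Psmd4 (0.99) were closest, and Psma3 (0.76), Psmd7 (0.77) and Psmd3 (0.45) least close. Outside these genes r was high for the chaperones Psmd5 (0.95), Psmd9 (0.89), Psmd10 (0.88), Psmg1 (0.86) and Psmg2 (0.81) and for Psmf1 (0.91). It was 0.59 for Psmg3, 0.58 for Psme2, 0.20 for Psme1, 0.14 for Psme4, -0.01 for Psme3, -0.06 for Psmg4, -0.13 for Psmb10 and -0.67 for Psma8. The map of all members shows these rows as breaks in otherwise uniform columns.

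**Figure D5:**
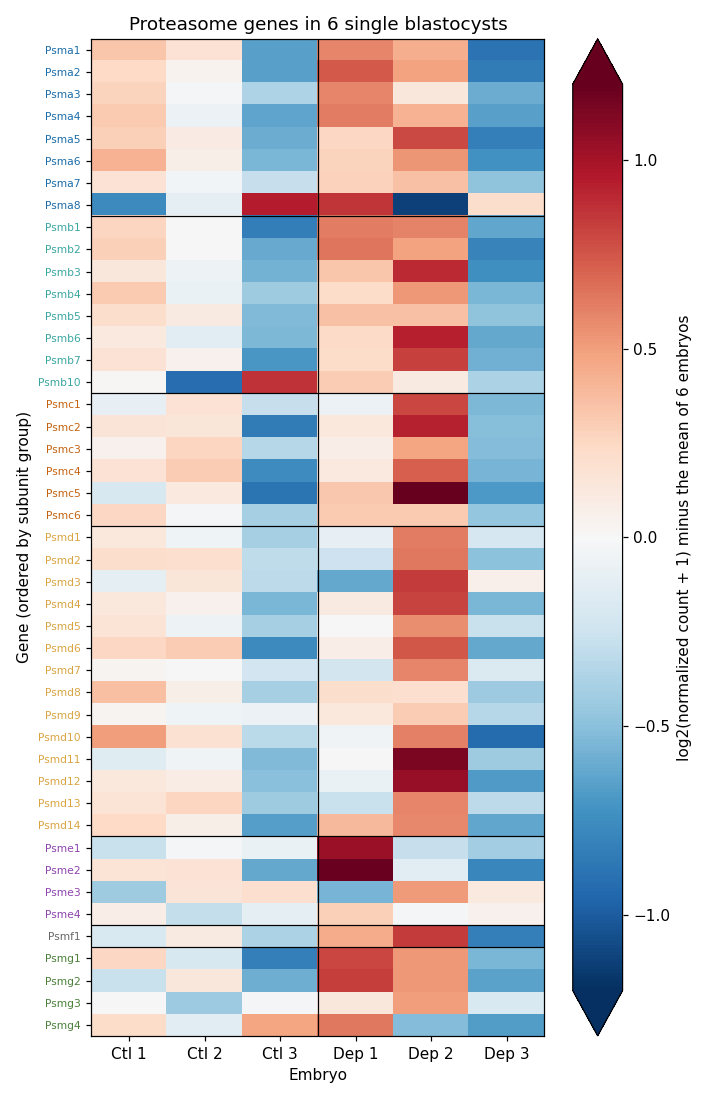
Log2(normalized count + 1) of each proteasome gene minus its mean over 6 embryos, as colour (red above, blue below, saturating at 1.2), with genes in rows by subunit group and embryos in columns. Ctl 3 and Dep 3 are blue in most rows, Dep 2 is red in most, and Psma8, Psmb10, Psmg4, Psme3 and Psme4 break the columns. Psme1 and Psme2 are red in Dep 1 alone of the Dep embryos.

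Dep 2 was the highest embryo for 15 of the 17 regulatory subunits. Among the 14 constitutive core genes Dep 2 was highest in 8 and Dep 1 in 6. No test of the difference between these counts was made. Over all genes Dep 2 was highest in 17.6% and Dep 1 in 24.3%. Over genes with a mean of 1000 or more these shares were 19.6% and 36.7%. The mean log2 deviation was 0.42 for the core and 0.01 for the regulatory subunits in Dep 1, and 0.55 and 0.73 in Dep 2. The core exceeded the regulatory particle by 0.41 in Dep 1 and 0.15 in Ctl 1 on this scale, and the difference was -0.11, -0.06, -0.17 and -0.22 in Ctl 2, Ctl 3, Dep 2 and Dep 3. Transcript length moved with this difference. The core transcripts had a median length of 1162.5 bases and the regulatory ones of 1636, and over the 825 genes with a mean of 1000 or more and a transcript of up to 1500 bases the median deviation was 0.53 in Dep 1, against 0.15 for longer ones of up to 3000 bases and 0.00 above. In Dep 3 these were -0.35, -0.15 and 0.03, in Ctl 3 -0.14, -0.16 and 0.04, and in Dep 2 -0.04, 0.13 and -0.13. Within the transcripts of up to 1500 bases the 11 core genes had a median deviation of 0.27 in Dep 1 and the 4 regulatory genes 0.11. In Ctl 3 the same 11 and 4 genes had -0.57 and -0.76, and in Dep 3 -0.65 and -0.58. The part of transcript length in the differences between embryos was not tested.

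Partners and regulators of the proteasome showed no call either. Of 24 measured partners (receptors, deubiquitinases, chaperones and unfoldases), 10 had a higher mean log2 level in Dep (median log2 fold -0.05), and 0 passed the test. Adrm1, a ubiquitin receptor of the base, had 4957, 8060.3 and 4510.0 in Ctl against 6033, 12218 and 6778 in Dep, a log2 fold of 0.49 ± 0.34. Zfand5, an activator of degradation, had a log2 fold of -0.40 ± 0.31. The chaperone Pomp, which closes the assembly of the core, had 8209, 5146 and 4922 in Ctl against 7793, 5735 and 3911 in Dep, and the small lid subunit Sem1 4445, 2710.1 and 3741 against 6273, 2254 and 2791. Their log2 folds were -0.08 ± 0.33 and -0.06 ± 0.39.

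Of 17 measured regulators 11 had a higher mean log2 level in Dep (median log2 fold 0.06), with 0 calls. Nfe2l1, the factor known to raise proteasome genes when degradation is short, had 878, 1118 and 1409 in Ctl 1, 2 and 3 against 804, 1022 and 1726 in Dep 1, 2 and 3. It was highest in the embryo numbered 3 of each group, where most subunits were lowest. So were Syvn1, Foxo4, Sel1l, Keap1, Maff and Nfya of the same list, while the rest of the 17 regulators were not. The share of all genes with this order was not computed. The log2 fold of Nfe2l1 was 0.01 ± 0.35, and the cause of this order was not tested. Nfyc, a subunit of NF-Y, had a log2 fold of 0.51 ± 0.30, Syvn1, a ubiquitin ligase of the endoplasmic reticulum, 0.79 ± 0.70 and Foxo4, a forkhead factor, 0.68 ± 0.83. Of 11 genes for ubiquitin and its activating enzymes 7 had a higher mean in Dep, with a median of 0.09 and 0 calls. Ubb, which encodes polyubiquitin, had 32876, 21016 and 16863 in Ctl against 43568, 44568 and 14224 in Dep, with the embryo numbered 3 lowest in each group. Its log2 fold was 0.42 ± 0.46, and that of Nae1, of the enzyme that activates Nedd8, was 0.52 ± 0.36. Adjusted p was 0.9997 for each gene named from these lists (limma).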

How the data were processed

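RNA of 6 single blastocysts (3 Ctl, 3 Dep) was amplified with a SMART-Seq v4 kit, which does not mark strand, and sequenced. HISAT2, Cufflinks 2.2.1 and the build mm10 are named, with no role, per the submitters' processing notes, while what counted the reads, and on which annotation, is not given in the sources used here. Signal values, as deposited, are each a gene's read count divided by 1 size factor per embryo, called normalized count here, and the deposited table holds no gene with a mean under 14.2. The authors also deposited log2 fold changes with standard errors, a test score, and p-values, of which only those of Psmc5 are quoted. Values gave whole reads for every gene within a tolerance of 0.01 read, and these reads (16543356 to 21548220 per embryo) were used for edgeR, DESeq2, shares and FPKM. In Dep 2 the value of 1 read, 0.993, is near 1.

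Gene identifiers were matched to GENCODE M21 (11829 of 12149). Groups were compared with limma 3.58.1 (R 4.3.3) on log2(normalized count + 1) over all genes. The fit had a mean-variance trend, Benjamini-Hochberg adjustment and a threshold of 0.05. On simulated counts it called 8.96% of 67 genes changed 2-fold, 61.2% of 67 changed 4-fold and 86.4% of 66 changed 8-fold. It also made 10 false calls there. Most changes of 2-fold were thus missed, so 0 calls does not exclude changes of that size. Descriptive values were computed in Python 3.11.15. The members and lists were chosen with earlier results of these data known. Values per embryo are given for the catalytic subunits, the highest and lowest fold of each subunit group, the highest and lowest level per length, members with a small p, Psmd14, Psmd4, Psmd2, Psmc5, Psma7, Psme4 and Psmf1 for their roles, and, of each pathway list, the 3 genes with the smallest p plus Nfe2l1, Pomp, Adrm1 and Sem1. Some genes that this rule takes are not reported here. Other values were chosen for display after they were seen, as were the principal transcript lengths, since merged exons include retained introns.

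Alternatives were other pseudocounts, scalings, filters and tests (edgeR 4.0.16, DESeq2 1.42.0), library weights, a covariate for Y-linked genes, FPKM values, the replicate block and each embryo left out. Same-numbered embryos deviated together from their group means (r = 0.13, 0.15 and 0.13 across genes for numbers 1, 2 and 3). Across embryos of unlike number r ran from -0.16 to 0.04. Deviations within a group sum to 0, so values of both signs arise without pairs as well, and this check cannot establish pairing. Embryos of 1 number were treated as pairs in the replicate block only, and the main limma fit has no block. That pairing comes from this check, and the labels do not state it. No 2 embryos agreed within sampling noise (chi-square per degree of freedom 86.6 to 218). Of the 46 genes, 21 overlap another annotated gene, 11 of them a protein-coding one, so their reads may be shared.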

Additional observations from a re-analysis of the deposited data

How the results depend on the processing

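Each group had 3 embryos, and the parts of their spread and of the depth in the precision were not tested. No proteasome gene passed the adjusted threshold under any of the alternatives run, and no alternative other than DESeq2 changed the count of 0 genes called among all genes; DESeq2 called 1 gene, not a member. The replicate number as a block left the calls at 0. It cannot change a log2 fold or the median of 0.19, as each number has 1 embryo in each group. Below an unadjusted 0.05 it moved all genes from 225 to 420 and the members from 0 to 1. That member was Psmc5 (limma adjusted p = 0.941). It changed no other call. The fit without a mean-variance trend cannot change a log2 fold either, and this fit and the block are among the alternatives counted next. Of 272 log2 folds of the 21 named members under 13 alternatives with all embryos, 262 kept their direction. The others were Psmc3 under quantile normalization (-0.016) and with equal totals without mitochondrial genes (-0.013), Psmb10 with those totals (-0.019), by edgeR (-0.12) and by DESeq2 (-0.13), Psma8 by edgeR (0.0063), Psmd2 with library weights (0.14) and a Y-linked covariate (0.040), Psme1 with library weights (-0.063) and Psme3 with the covariate (-0.030). With each embryo left out, log2 folds ran from -0.060 to 0.36 for Psma7, -0.47 to 0.52 for Psma8, -0.084 to 0.42 for Psmb5, -0.0082 to 0.77 for Psmb6, -0.020 to 0.68 for Psmb7, -0.43 to 0.46 for Psmb10, -0.21 to 0.29 for Psmc3, -0.41 to 0.15 for Psmd2, -0.10 to 0.58 for Psmd4, -0.60 to 0.16 for Psmd10, -0.038 to 0.60 for Psmd14, -0.23 to 0.50 for Psme1, -0.20 to 0.34 for Psme3 and -0.038 to 0.79 for Psmf1. They kept their sign for Psma4 (0.0023 to 0.64), Psmb1 (0.068 to 0.80), Psmc5 (0.13 to 1.14), Psmd11 (0.026 to 0.81), Psme4 (0.12 to 0.31), Psmg1 (0.23 to 0.91) and Psmg4 (-0.78 to -0.13). The medians ran from -0.04 to 0.47 for the 45 genes, -0.07 to 0.49 for alpha, -0.01 to 0.67 for beta, -0.07 to 0.47 for ATPase, -0.13 to 0.31 for non-ATPase, -0.05 to 0.37 for activator and 0.21 to 0.69 for assembly genes. With all embryos, medians moved by over 1.5 times for alpha (0.09) under quantile normalization (0.01), with equal totals (0.06), by edgeR (0.15) and DESeq2 (0.15) and with the covariate (0.23), for ATPase (0.16) with library weights (0.33), quantile normalization (0.09) and the covariate (0.27), for non-ATPase (0.17) with library weights (0.31) and the covariate (0.28), for beta (0.26) with the covariate (0.41) and for activators (0.20) with library weights (0.05). The causes were not tested.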
